A study of Mus musculus with 6 samples.

Results

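miR-140 and miR-455 are microRNAs (miRNAs, short RNAs that silence messenger RNAs with matching sites) known for their high expression in chondrocytes, the cells of cartilage. Both arms of both hairpins were taken by name from the count table, giving 4 mature miRNAs (miR-140-3p, miR-140-5p, miR-455-3p and miR-455-5p) of 1927 rows, of which 327 were above 0 in any library. All 4 were above 0 in each of the 6 libraries and passed the filter on low counts. The libraries came from extracellular vesicles of tibias and femurs of untreated male Swiss-CD1 mice aged 8 weeks. There were 3 libraries of large vesicles (lEVs, pelleted at 10000 g) and 3 of small vesicles (sEVs, collected at 100000 g on a cushion of 30% sucrose). All samples came from bones whose ends (epiphyses), which carry the joint cartilage, had been cut off and whose marrow had been spun out before crushing. The labels do not tie replicates to separate mice or preparations, so the spread behind the p-values may be technical.

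A hairpin is cut into a 5p and a 3p arm, and the arm loaded into an Argonaute protein reads out its targets through bases 2 to 8, the seed. In cartilage, the transcription factor SOX9 drives the host genes of both hairpins, Wwp2 (a ubiquitin ligase) and Col27a1 (a fibrillar collagen). miR-140-5p is known to repress Adamts5, an enzyme that degrades the cartilage proteoglycan aggrecan, and mice that lack miR-140 have short bones and lose joint cartilage early. miR-455 is known to repress Epas1, which encodes the hypoxia factor HIF-2alpha. In cartilage miR-140-3p is known to be the more abundant arm of its hairpin.

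The mature sequences show which target sites each arm can read, and are printed 5′ to 3′ from RefSeq (GRCm38.p6) with the seed in capitals. Of the 4 members, 3 matched an entry.
miR-140-3p: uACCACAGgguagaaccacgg
miR-455-3p: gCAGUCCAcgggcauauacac
miR-455-5p: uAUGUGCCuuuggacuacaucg
The hairpin of miR-140 shows where the abundant arm lies, here with the 3p arm (bases 45 to 65 of 70) in capitals.
Mir140 hairpin: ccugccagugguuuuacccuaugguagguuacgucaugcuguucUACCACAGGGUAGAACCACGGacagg
The 3 seeds differ from one another. Among the 1679 miRNA names of the table that had a RefSeq sequence, of 1978 names, only miR-497b shared the seed of miR-140-3p, only miR-5129-3p shared that of miR-455-5p, and none shared that of miR-455-3p. Both sharers were listed at 0 in every library. Of the 157 names in tested rows, 137 had a sequence and could be searched for these seeds. The longest stretch in common between the 3p arms of the 2 hairpins was CCACGG, at bases 16 to 21 of miR-140-3p and beginning at base 6 of miR-455-3p, and 7 of the 1679 sequences (0.417%) held it. The motif GGAG, which the RNA-binding protein hnRNPA2B1 is known to recognise in miRNAs of small vesicles, was in 0 of the 3 sequences and in 14.2% of the 1679. GGCU, recognised by SYNCRIP, was likewise in 0 of the 3 and in 13.3% of the 1679. Only the strand of the mature miRNA was searched, and the motifs can overlap only by the G that ends the first and opens the second. The 3p arms had a GC content of 57.1% each and miR-455-5p 45.5%, against a median of 47.6% (quartiles 40.9% and 52.2%) over 137 tested names with a sequence.

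Both hairpins lie on the plus strand within their host genes and in the same orientation. In the GENCODE M21 annotation of GRCm38, Mir140 is at chr8:107551244-107551313, in intron 16 of the longest Wwp2 transcript (24 exons), and 1 annotated exon of Wwp2, that of the retained-intron transcript Wwp2-206, also covers it. The 3p arm is at chr8:107551288-107551308. Mir455 is at chr4:63256851-63256932, in intron 10 of the longest Col27a1 transcript (61 exons), with no host exon over it. Its arms are at chr4:63256867-63256888 (5p) and chr4:63256904-63256924 (3p).

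The depth of the libraries set the precision of the 2 hairpins very differently. Totals were 47441, 92502 and 86637 counts in lEVs replicates 1, 2 and 3 and 75486, 99314 and 114331 counts in those of sEVs. miR-140-3p rested on 853 to 1227 counts a library and miR-140-5p on 36 to 105. miR-455-3p had 4 to 18 counts and miR-455-5p 5 to 14, so counting error alone is wide for both arms of miR-455. Wilson intervals of 95% printed below cover counting error only. Levels are given as the share of all counts of a library and as CPM (counts rescaled to one library size by TMM, which sets libraries to the same level over most miRNAs). The arms are of near-equal length (21 or 22 bases where a sequence was matched), so no length scaling was used. lEVs replicate 1 stood apart from lEVs replicates 2 and 3 over many miRNAs. Its chi-square statistic over degrees of freedom was 25.2 and 19.8 against these libraries, compared with 2.40 between them. The members' fold changes, arm ratios, places in level and nearest profiles are therefore also given without it.

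miR-140-3p was among the abundant miRNAs of both fractions, and miR-140-5p was lower than it in every library. With a mean of 13078 ± 4398 CPM (SD over the 6 libraries), miR-140-3p ranked 15 of the 145 miRNAs tested, between miR-148a-3p (13508 ± 6561 CPM) and the muscle miRNA miR-1a-3p (12853 ± 2375 CPM). Its difference from either neighbour was smaller than the SDs. miR-140-5p ranked 62, at 925 ± 470 CPM, between miR-29c-3p (943 ± 213 CPM) and miR-379-5p (798 ± 104 CPM). miR-455-5p and miR-455-3p ranked 136 and 137, at 115 ± 28.8 and 114 ± 37.3 CPM, next to each other and within their spread. Their outer neighbours were miR-301a-3p (116 ± 34.7 CPM) and miR-190a-5p (112 ± 79.9 CPM). With lEVs replicate 1 left out, miR-140-3p stood at 11291 ± 465 CPM and miR-140-5p at 749 ± 211 CPM (SD over 5 libraries), in places 16 and 64. miR-455-3p and miR-455-5p were then at 118 ± 40.8 and 109 ± 26.6 CPM, in places 136 and 141. The order miR-140-3p, miR-140-5p, miR-455 held in all 6 libraries. The observed order of the miR-455 arms changed with the fraction, but at 4 to 18 counts an arm it was within counting error in each library. Together the 4 arms took 2.05%, 1.44% and 1.45% of the counts of lEVs replicates 1, 2 and 3 and 1.20%, 1.12% and 1.16% of those of sEVs. miR-140-3p made up 90.5% to 94.5% of the counts of the 4 arms.

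**Figure D1:**
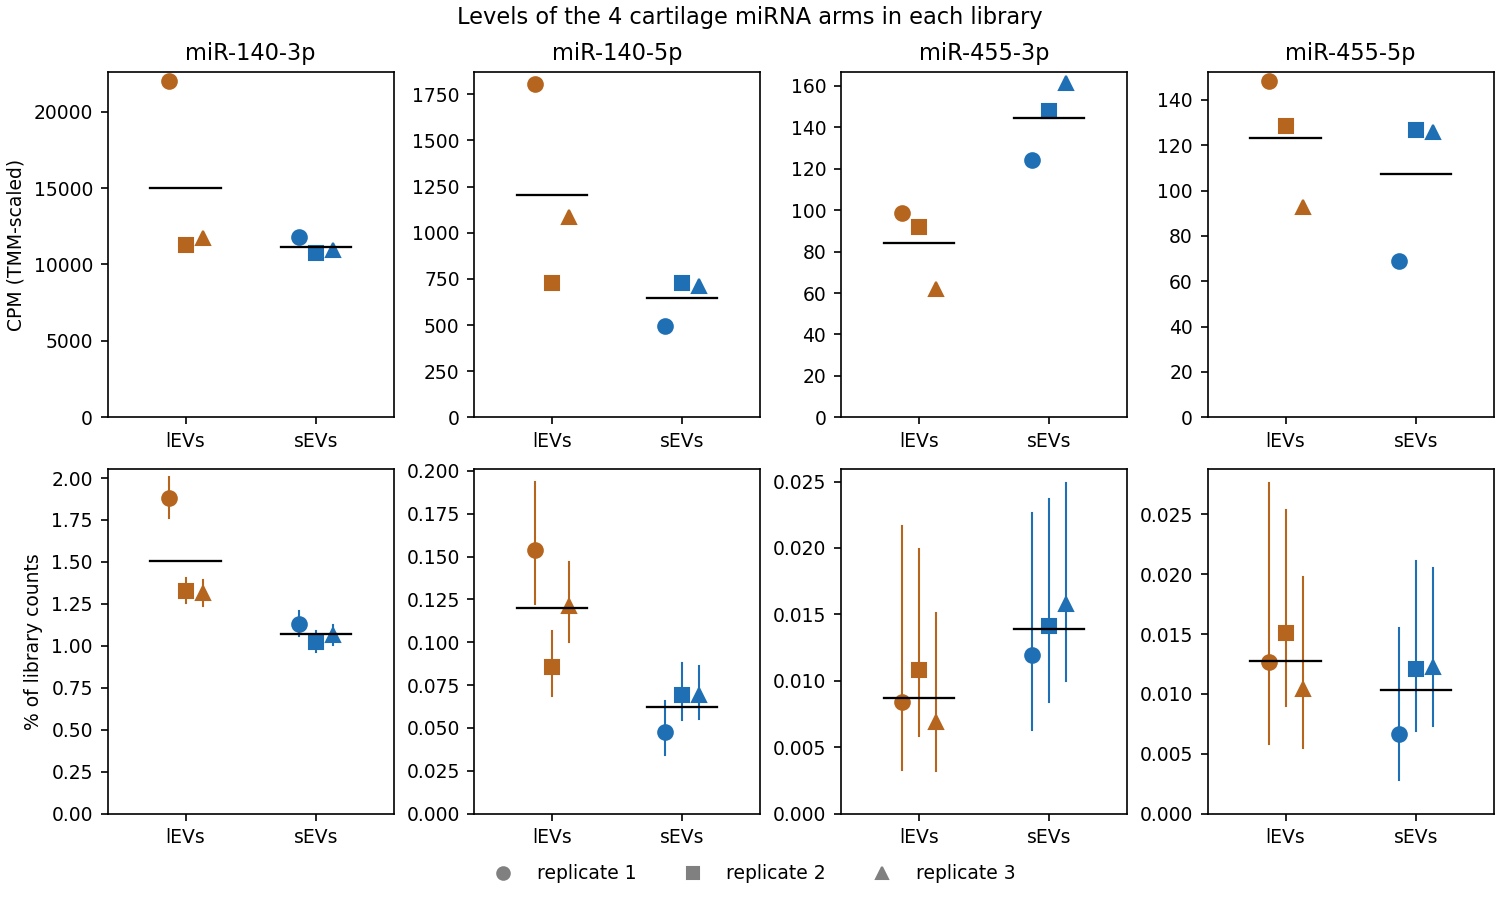
Each column shows 1 arm, as CPM with TMM factors in the upper row and as percent of all counts of the library in the lower row, with 95% Wilson intervals (counting error only). Points are the 3 lEVs (brown) and 3 sEVs (blue) libraries and black bars are means; lEVs replicate 1 is the highest library for both arms of miR-140, at 22015 and 1804 CPM.

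The study compared small with large vesicles, and vesicle size, spin and sucrose cushion differed together. None of the 4 arms passed the threshold in it (0 of 4, against 17.2% of the 145 miRNAs tested; edgeR's quasi-likelihood test, Benjamini-Hochberg adjusted p under 0.05, 8.28% being higher in sEVs and 8.97% higher in lEVs). The unadjusted edgeR p was under 0.05 for 2 of the 4, miR-140-5p and miR-455-3p, whose fold changes had opposite signs. It was also under 0.05 for 55 of the 145 miRNAs tested. DESeq2 and limma voom also called 0 of 4, against 24.1% and 20% of all tested miRNAs. The median log2 fold change of the 4 arms (sEVs relative to lEVs) was -0.26, beside -0.04 over all tested miRNAs. In vesicles, as in any bulk sample, fewer cells or vesicles of a type and less of the RNA in each cannot be told apart.

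miR-140-3p made up 1.88%, 1.33% and 1.31% of the counts of lEVs replicates 1, 2 and 3, and 1.13%, 1.02% and 1.07% of those of sEVs. As shares, the 3 lEVs libraries lay above the 3 sEVs libraries, as they did for 27.6% of the tested miRNAs. The highest sEVs share (replicate 1, interval 1.06% to 1.21%) and the lowest lEVs share (replicate 3, interval 1.24% to 1.39%) had intervals that did not meet. The lEVs libraries stood at 22015, 11265 and 11743 CPM and the sEVs libraries at 11771, 10741 and 10935 CPM. On that scale only lEVs replicate 1 stood high, and the other lEVs libraries lay within the range of the sEVs libraries. The lEVs mean was 15008 ± 6073 CPM and the sEVs mean 11149 ± 548 CPM (SD, n = 3 each), a log2 fold change of -0.42 (SE 0.26, 95% interval -1.02 to 0.18; edgeR adjusted p = 0.253).

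Without lEVs replicate 1 the log2 fold change of miR-140-3p was -0.05 (SE 0.11, interval -0.29 to 0.18; edgeR adjusted p = 0.743). What remained then turned on the scaling. The TMM factors of lEVs replicates 2 and 3 were 1.18 and 1.12 and those of sEVs lay between 0.952 and 0.974, so TMM lowers these lEVs values relative to their shares. With library totals in place of TMM, and without lEVs replicate 1, the log2 fold change was -0.30 (edgeR adjusted p = 0.0311). In that setting 64 of the 151 miRNAs tested passed, 44 of them lower in sEVs, and the median over all 151 stood at -0.25. Relative to that median, miR-140-3p was again close to 0. Over all 6 libraries, totals moved the median of all tested miRNAs from -0.04 to -0.18 and miR-140-3p to -0.49 (edgeR adjusted p = 0.0612).

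For miR-140-5p, the arm that represses Adamts5, the shares were 0.154%, 0.0854% and 0.121% in lEVs replicates 1, 2 and 3 and 0.0477%, 0.0695% and 0.0691% in sEVs. As for the other arm, all lEVs shares lay above all sEVs shares, as they did for 27.6% of the tested miRNAs. The lEVs libraries stood at 1804, 725 and 1084 CPM and the sEVs libraries at 497, 729 and 709 CPM, where lEVs replicate 2 fell among the sEVs libraries. Means were 1204 ± 549 and 645 ± 129 CPM (SD, n = 3 each). The log2 fold change fitted by edgeR was -0.81 (SE 0.33, interval -1.58 to -0.05; edgeR adjusted p = 0.119). It missed the threshold, and the interval, which is not adjusted for the 145 tests, ends near 0. Without lEVs replicate 1 it was -0.47 (SE 0.20, interval -0.89 to -0.04; edgeR adjusted p = 0.0878). The call changed with 4 settings. It passed with library totals (-0.91, edgeR adjusted p = 0.0368), with totals and no lEVs replicate 1 (-0.71, adjusted p = 0.0143), with no filter on low counts (-0.83, adjusted p = 0.00312) and without lEVs replicate 2 (-1.13, adjusted p = 0.0180). Over all miRNAs tested in these settings, 35 of 145, 64 of 151, 53 of 327 and 22 of 148 passed, in the same order.

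miR-455-3p ran the other way. Its counts were 4, 10 and 6 in lEVs replicates 1, 2 and 3 and 9, 14 and 18 in those of sEVs, and its CPM 98.8, 91.8 and 62.0 in lEVs and 124, 148 and 162 in sEVs. All 3 sEVs libraries lay above all 3 lEVs libraries in CPM, as they did for 22.1% of the tested miRNAs, and also in shares (17.9%). However, miR-455-3p passed the filter on low counts through its 3 sEVs libraries alone, since each lEVs library lay below the cutoff. Its order, fold change and interval therefore depend on the group where it is high and are no separate support for a difference. Means were 84.2 ± 19.6 and 145 ± 18.9 CPM (SD, n = 3 each). The log2 fold change fitted by edgeR was 0.83 (SE 0.35, interval 0.03 to 1.64; edgeR adjusted p = 0.124). Without lEVs replicate 1 the value was 0.90, with a wider interval of -0.23 to 2.02 (edgeR adjusted p = 0.208). Whether the edgeR interval over all 6 libraries excluded 0 turned on the setting. It included 0 with no filter on low counts (0.78, SE 0.56, interval -0.31 to 1.87) and with library totals (0.67, interval -0.23 to 1.57). The same held, narrowly, with the scaling of DESeq2 in place of TMM (-0.01 to 1.67) and without the 5 most abundant miRNAs (-0.02 to 1.64). It excluded 0 with zeros read as 1 (0.10 to 1.64) and with a mean of at least 100 CPM (0.09 to 1.64). DESeq2 gave 0.83 with an SE of 0.55, and voom 0.86 with an SE of 0.35. The counting intervals of neighbouring libraries overlapped. That of lEVs replicate 2 ran from 0.00587% to 0.0199% of the library and that of sEVs replicate 1 from 0.00627% to 0.0227%, so these 2 libraries could not be told apart at this depth.

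miR-455-5p showed no such order. Large-vesicle replicates 1, 2 and 3 gave 6, 14 and 9 counts (148, 129 and 93.0 CPM), and small-vesicle replicates 5, 12 and 14 counts (69.0, 127 and 126 CPM). The fractions overlapped, with means of 123 ± 28.0 and 107 ± 33.1 CPM (SD, n = 3 each). The log2 fold change was -0.10 (SE 0.38, interval -0.99 to 0.78; edgeR adjusted p = 0.869), an interval that spans differences in either direction. It was -0.03 without lEVs replicate 1 (interval -1.17 to 1.12; edgeR adjusted p = 0.983). Its sign turned to 0.12 without sEVs replicate 1, the library with the lowest value.

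**Figure D2:**
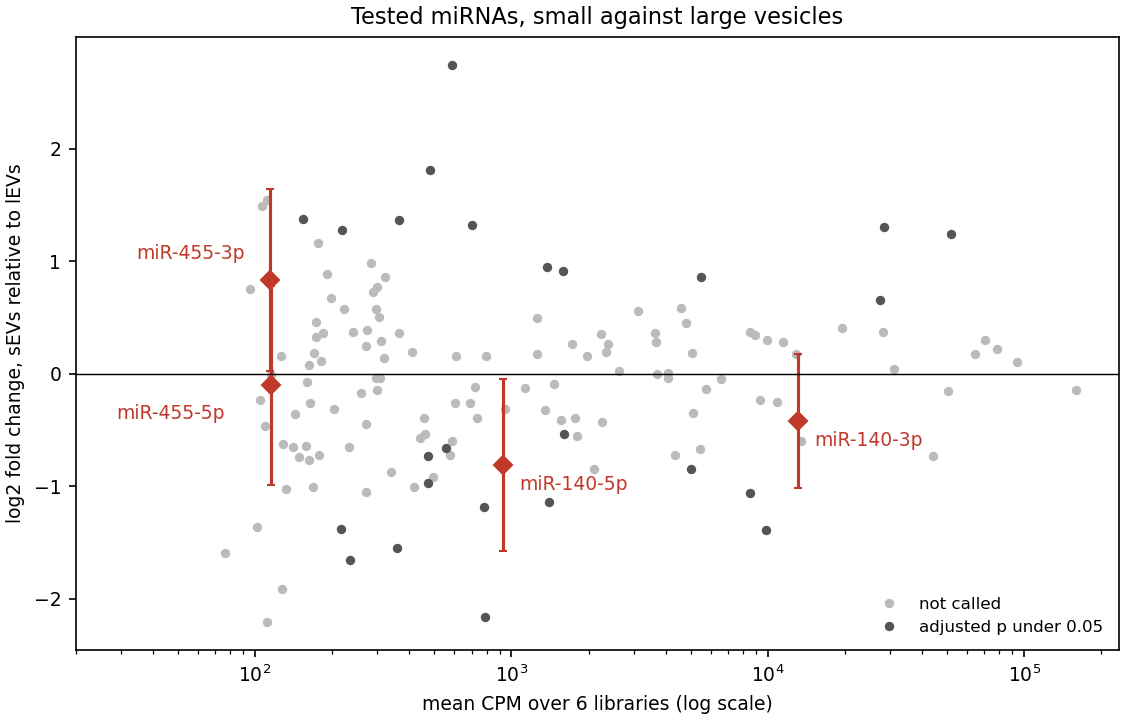
Each dot is 1 of the 145 tested miRNAs, by mean CPM over the 6 libraries (log scale) and log2 fold change of sEVs relative to lEVs; dark dots had an adjusted p under 0.05 in edgeR. Red diamonds are the 4 arms with unadjusted 95% intervals: -0.42 and -0.81 for miR-140-3p and miR-140-5p, 0.83 and -0.10 for miR-455-3p and miR-455-5p.

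The ratio of the arms within a library needs no scaling between libraries. miR-140 was dominated by its 3p arm in both fractions. The 3p arm made up 92.4%, 94.0% and 91.5% of the counts of both arms in lEVs replicates 1, 2 and 3, and 96.0%, 93.6% and 93.9% in those of sEVs. For each count of 5p, those of 3p numbered 12.2, 15.5 and 10.8 in large and 23.7, 14.7 and 15.4 in small vesicles. The fractions overlapped, since lEVs replicate 2 exceeded sEVs replicates 2 and 3, and sEVs replicate 1 alone stood high, with 36 counts of the 5p arm. The log2 ratio was 3.66 ± 0.264 in lEVs and 4.12 ± 0.373 in sEVs (SD, n = 3 each), a difference of 0.46 (SE 0.50, interval -0.72 to 1.64; limma adjusted p = 0.710; exact two-sided permutation p = 0.3). Without lEVs replicate 1 the difference was 0.43 (limma adjusted p = 0.770). Without sEVs replicate 1 it was 0.24 (limma adjusted p = 0.784).

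miR-455 had nearly balanced arms, with the 5p arm ahead in lEVs and the 3p arm ahead in sEVs. The 3p arm made up 40.0%, 41.7% and 40.0% of both arms in lEVs replicates 1, 2 and 3 and 64.3%, 53.8% and 56.2% in those of sEVs. All sEVs ratios lay above all lEVs ratios, which was so for 9.43% of the 53 hairpins with both arms measured. Both arms together had only 10, 24 and 15 counts in large and 14, 26 and 32 in small vesicles. The interval of lEVs replicate 1 ran from 16.8% to 68.7% and that of sEVs replicate 1 from 38.8% to 83.7%, and the intervals of all 6 libraries included 50%. The log2 ratio was -0.51 ± 0.0432 in lEVs and 0.45 ± 0.300 in sEVs (SD, n = 3 each), a difference of 0.97 (SE 0.48, interval -0.16 to 2.09; limma adjusted p = 0.449; exact two-sided permutation p = 0.1, the smallest that 3 against 3 libraries allow). lEVs replicate 1 bore little on it: without that library the difference was 0.96 (limma adjusted p = 0.449).

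**Figure D3:**
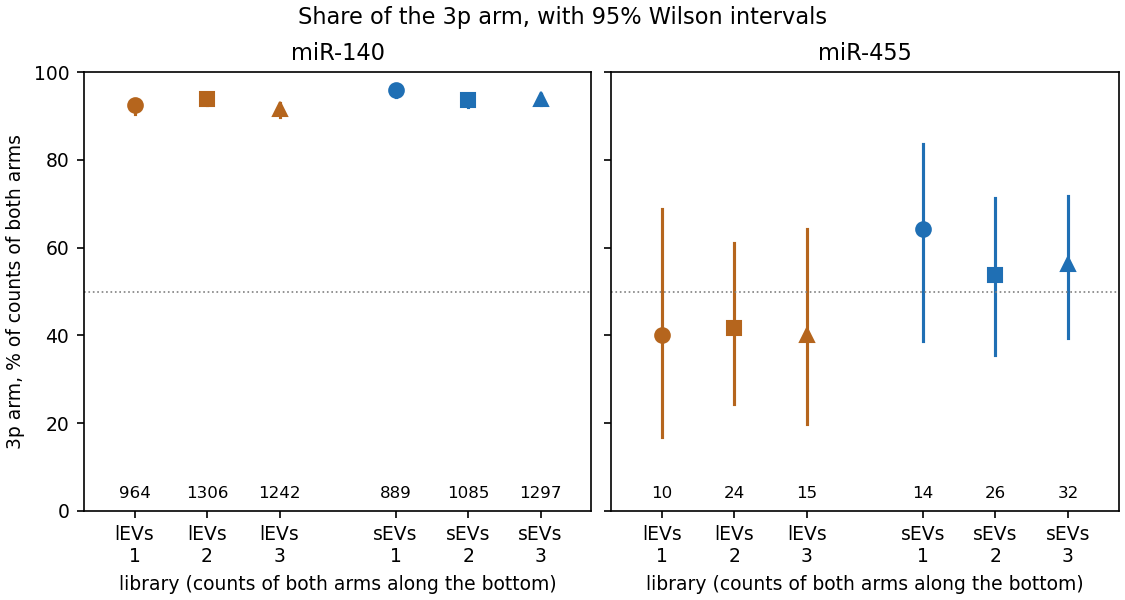
The 3p arm as percent of the counts of both arms, for miR-140 (left) and miR-455 (right), in each library, with 95% Wilson intervals (counting error only) and the counts of both arms along the bottom. miR-140 lies between 91.5% and 96.0% in all libraries; miR-455 lies near 40% in lEVs and between 53.8% and 64.3% in sEVs, with wide intervals that all include 50%.

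Among the 53 hairpins with a mean of at least 10 counts over both arms, 19 had more 3p than 5p on average. miR-140 ranked 12 from the most 3p-biased and miR-455 ranked 20. No arm ratio passed an adjusted p of 0.05 in limma (0%), and 7 had an unadjusted p under 0.05, neither member among them. The median absolute log2 difference was 0.80, which lies above the difference of miR-140 (0.46, place 38 by size) and below that of miR-455 (0.97, place 21). The hairpins nearest to miR-140 in mean arm ratio were those of miR-222, miR-126a and miR-148b, with differences of -1.97, -0.08 and 1.71 (limma adjusted p = 0.335, 0.930 and 0.545). Those nearest to miR-455 were miR-434, miR-144 and miR-674, with 0.01, 1.78 and 0.18 (limma adjusted p = 0.984, 0.377 and 0.930). The places by mean arm ratio were again 12 and 20 without lEVs replicate 1, and 2 of the 3 nearest hairpins were shared for each.

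The ratio of miR-140 to miR-455 was lower in sEVs for the 3p arms and overlapped for the 5p arms. For each count of miR-455-3p, those of miR-140-3p numbered 223, 123 and 190 in lEVs replicates 1, 2 and 3, and 94.8, 72.6 and 67.7 in those of sEVs. All lEVs ratios exceeded all sEVs ratios, also without lEVs replicate 1. That order follows from the shares given above, where lEVs lay above sEVs for miR-140-3p and below them for miR-455-3p. It therefore adds no separate evidence, and it rests on 4 to 18 counts of miR-455-3p a library. This ratio was formed after its values were seen, is free of scaling and was not tested. For the 5p arms the ratio of miR-140 to miR-455 was 12.2, 5.64 and 11.7 in lEVs and 7.20, 5.75 and 5.64 in sEVs, and the fractions overlapped.

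lEVs replicate 1 raised both arms of miR-140 by more than most miRNAs. Its log2 CPM exceeded the mean of lEVs replicates 2 and 3 by 0.94 for miR-140-3p and 1.00 for miR-140-5p, against a median of 0.10 over the 145 tested miRNAs, of which 16 and 12 were at least as high. For miR-455-3p and miR-455-5p the excess was 0.30 and 0.37. As shares of library totals the excess of the miR-140 arms was 0.51 and 0.60, where the median of all tested miRNAs was -0.31. miRNAs of other cells also set this library apart. Of the skeletal muscle list (the soft tissue around the bones had been removed), miR-1a-3p and miR-133a-3p/133b-3p were lower in it by -0.61 and -0.93 while miR-206-3p was higher by 1.07. miR-208b-3p and miR-499-5p of that list were listed at 0 in all libraries. The summed share of the muscle list was 1.78% in lEVs replicate 1, with a range of 1.78% to 2.58% in lEVs and 1.67% to 2.00% in sEVs. Red-cell miRNAs took 0.746% of lEVs replicate 1 (range 0.544% to 0.746% in lEVs and 0.438% to 0.568% in sEVs), in which miR-486a-5p/486b-5p was higher by 0.95 and miR-451a lower by -0.72. The 11 tested rows of other miRNAs known to act in chondrocytes (described below) did not rise with miR-140 as a set, though some of them, including the most abundant, were higher. Their differences had a median of -0.14 and ran from -2.84 to 0.81. The summed share of that list was 1.78% in lEVs replicate 1, with a range of 1.78% to 2.00% in lEVs and 1.99% to 2.18% in sEVs. The part of other cell types in the miR-140 values of this library was not tested.

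**Figure D4:**
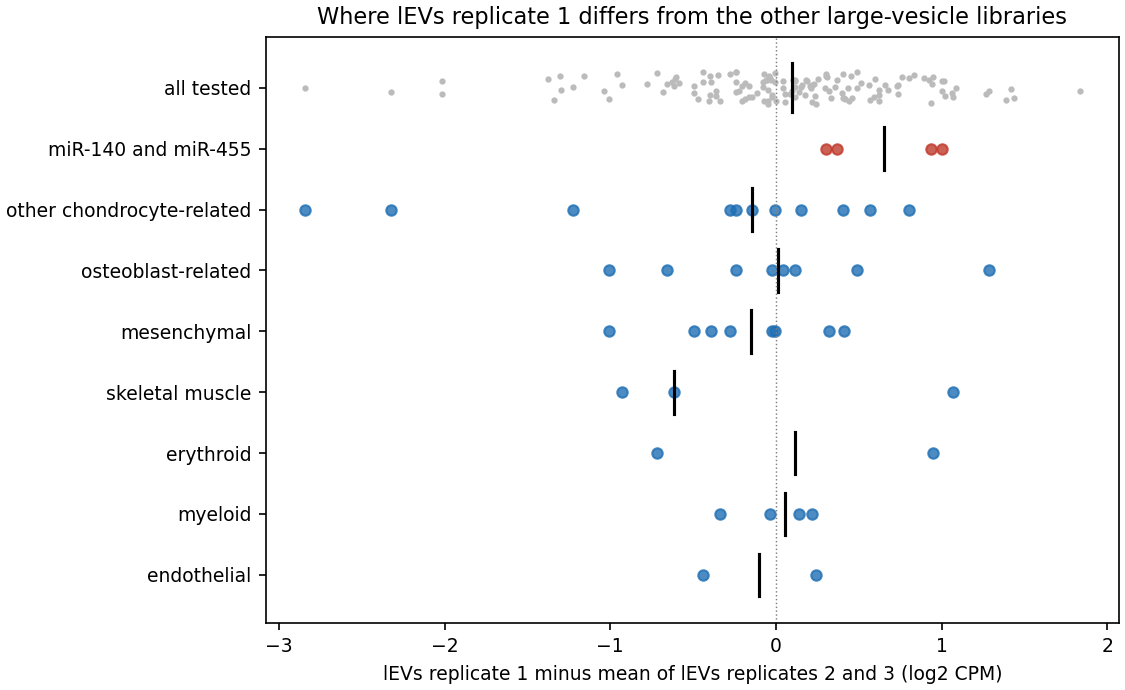
Difference in log2 CPM between lEVs replicate 1 and the mean of lEVs replicates 2 and 3, for all 145 tested miRNAs (grey), the 4 arms (red) and the tested rows of 7 other lists (blue); black bars are medians. The 4 arms have a median of 0.65, against 0.10 for all tested miRNAs.

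The other miRNAs known to act in chondrocytes did not share one direction. Of 15 named ones, 12 were above 0 and 11 were tested, and none of the 11 passed in edgeR (0 rose and 0 fell, against 17.2% called of all tested). An unadjusted p under 0.05 was found for 2 of the 11 and for 55 of the 145. The median log2 fold change of the list was 0.25, beside -0.04 over all tested. miR-675-3p and miR-675-5p, which come from the H19 transcript, and miR-193b-3p were listed at 0 in all libraries. The most abundant were the joined row miR-27a-3p/27b-3p, of which miR-27b-3p is known to repress Mmp13, and miR-199a-5p. In lEVs and sEVs the first had 7854 and 9917 CPM (log2 fold change of 0.34, edgeR adjusted p = 0.196) and miR-199a-5p 4068 and 5506 CPM (0.45, adjusted p = 0.0669). miR-146a-5p, a brake on inflammatory signalling, had a log2 fold change of -0.04 (4123 and 4020 CPM, edgeR adjusted p = 0.831) and miR-221-3p one of -0.40 (834 and 633 CPM, adjusted p = 0.183). The count depended on the tool, the scaling, the filter and single libraries. Over all miRNAs tested, DESeq2 called 24.1%, voom 20%, library totals 24.1%, no filter 16.2% and edgeR without lEVs replicate 1 34.4%. DESeq2 called miR-199a-5p higher and miR-145a-5p lower in sEVs. Voom and edgeR with library totals each called miR-145a-5p lower. Without the filter on low counts, miR-145a-5p was lower and miR-335-5p higher. Without lEVs replicate 1, edgeR called miR-199a-5p and miR-27a-3p/27b-3p higher and miR-145a-5p lower, and without sEVs replicate 1 it called miR-145a-5p lower. Both miR-145a-5p, known to repress Sox9, and miR-335-5p were named here after their values were seen. miR-145a-5p also belongs to the mesenchymal list.

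Lists of the neighbouring bone cells were read the same way. Of 8 tested osteoblast-related miRNAs, 1 rose in sEVs (miR-22-3p), 1 fell (miR-29a-3p, which represses collagen genes) and 6 did not pass (median log2 fold change -0.32). Of 8 mesenchymal miRNAs, miR-125b-5p, miR-143-3p and miR-10b-5p rose and 5 did not pass (median 0.14). Over all tested miRNAs the shares called were 8.28% higher and 8.97% lower in sEVs. miR-214-3p belongs to both lists. The summed share of the mesenchymal list was 13.6% to 16.2% in lEVs and 19.4% to 20.4% in sEVs. That of the other chondrocyte-related list was 1.78% to 2.00% and 1.99% to 2.18%. The summed share of the osteoblast-related list was 3.79% to 3.99% in lEVs and 3.03% to 3.65% in sEVs. That of the 4 cartilage arms, which is mostly miR-140-3p, was 1.44% to 2.05% and 1.12% to 1.20%. Both sums were lower in sEVs, but each of these lists held fold changes of both signs, so the sums do not describe every member. None of the 3 muscle, 2 red-cell, 4 myeloid and 2 endothelial rows tested passed in edgeR. The unadjusted edgeR p was under 0.05 for 1, 0, 1 and 2 of them, and for 55 of all 145 tested. DESeq2 called miR-133a-3p/133b-3p lower and miR-126a-3p higher in sEVs, and limma voom called none of these rows. Library totals called miR-206-3p and miR-223-5p lower, and with no filter on low counts miR-133a-3p/133b-3p passed with them. Without lEVs replicate 1, edgeR called miR-133a-3p/133b-3p and miR-223-5p lower and miR-126a-3p higher in sEVs, and in the mesenchymal list it added miR-199a-3p/199b-3p (higher). Without lEVs replicate 2 it called miR-206-3p lower, and without sEVs replicate 3 miR-29c-3p lower. In the osteoblast-related list, miR-26a-5p was called higher by DESeq2, by voom, with zeros read as 1, without the 5 most abundant miRNAs and without lEVs replicate 1. miR-29b-3p of that list was called lower by DESeq2, with library totals, with no filter (as was miR-196a-5p) and without lEVs replicate 1. In the mesenchymal list, miR-145a-5p was called lower in the settings given above for it. The call of miR-143-3p was lost with library totals, when replicate 3 of lEVs was left out, and when replicate 2 or 3 of sEVs was. The miRNAs miR-29b-3p and miR-29c-3p were named after their values were seen.

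By the profile of log2 CPM over the 6 libraries, each centred on its mean, the arms of one hairpin were not each other's nearest miRNAs. The root mean square difference between miR-140-3p and miR-140-5p was 0.34 (log2), and between miR-455-3p and miR-455-5p 0.45. Nearest to miR-140-3p were miR-423-5p (0.14), miR-196b-5p (0.15) and the red-cell row miR-486a-5p/486b-5p (0.15), where the median over all other tested miRNAs was 0.50. Nearest to miR-140-5p were let-7i-5p (0.15), miR-196a-5p (0.22) and miR-148a-3p (0.22; median 0.67). All 6 of these neighbours were high in lEVs replicate 1, by 0.73 to 1.29 in log2 CPM. Nearest to miR-455-3p were miR-541-5p (0.14), miR-26a-5p (0.19) and miR-10b-5p (0.21; median 0.51), and nearest to miR-455-5p were miR-142a-3p and miR-497a-5p (0.23 each) and miR-218-5p (0.25; median 0.46). The lists changed without lEVs replicate 1. Of the 3 nearest, 0 were shared for miR-140-3p, 1 for miR-140-5p (let-7i-5p), 2 for miR-455-3p (miR-541-5p and miR-10b-5p) and 0 for miR-455-5p. Nearest to miR-140-3p over the other 5 libraries were miR-93-5p (0.04), miR-30d-5p (0.06) and the myeloid miR-223-3p (0.07; median 0.33), named here after their values were seen. The arms of a hairpin were again not nearest to each other, at 0.35 for miR-140 and 0.43 for miR-455. By distance among the tested miRNAs, the other arm took place 84 from miR-140-3p and 37 from miR-140-5p. It took place 63 from miR-455-3p and 78 from miR-455-5p. These distances describe 6 or 5 libraries and share the scaling.

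**Figure D5:**
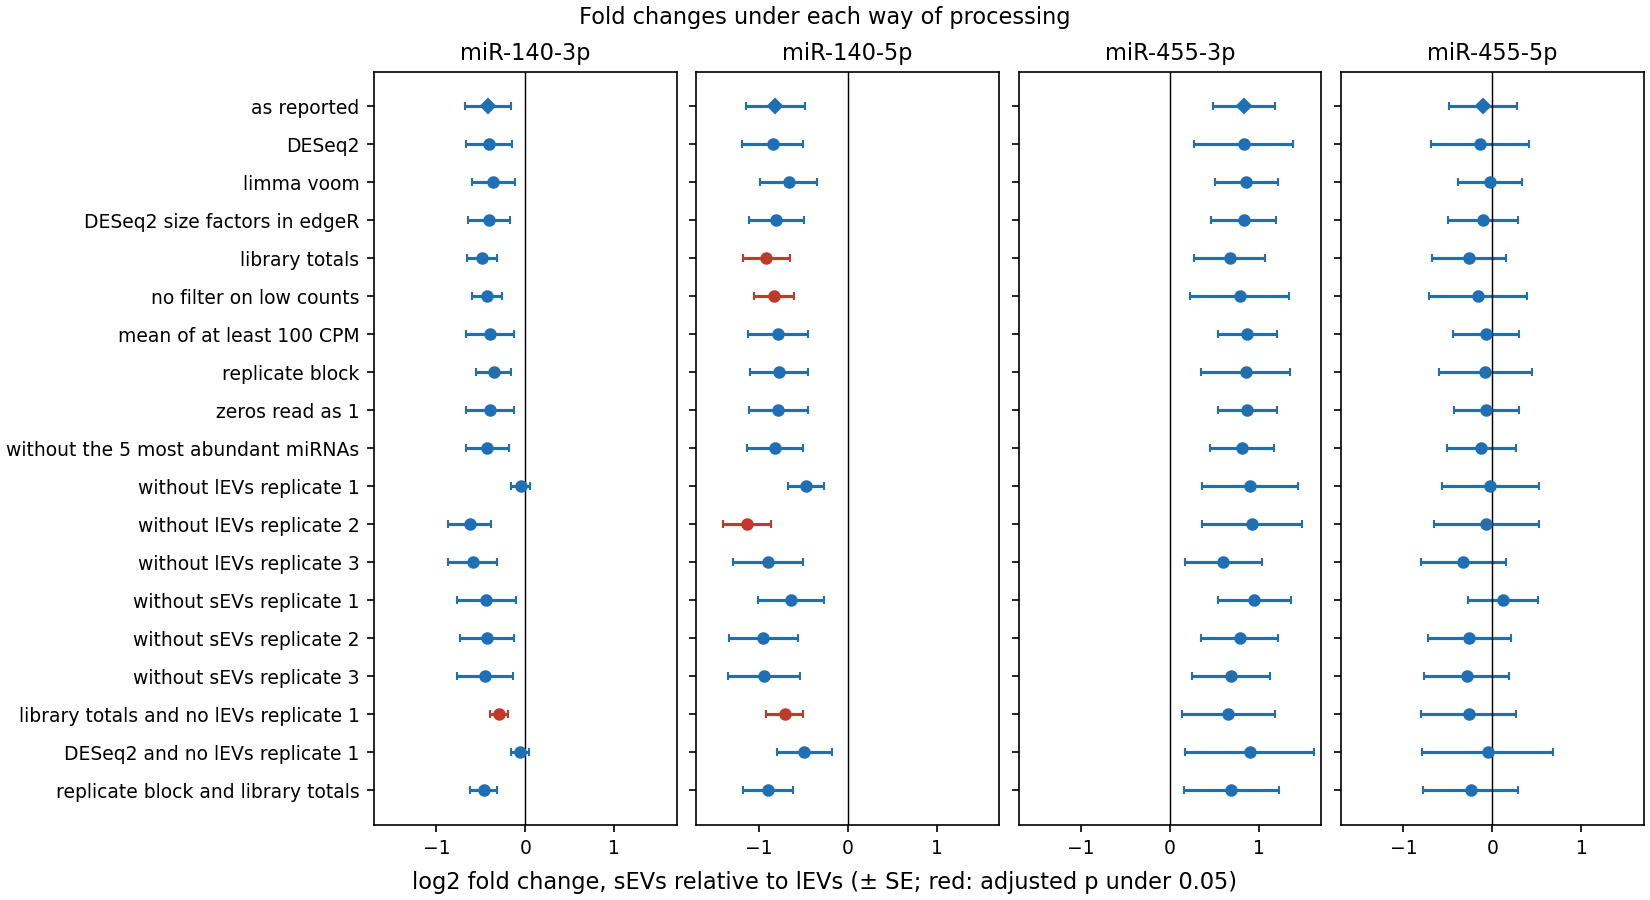
Log2 fold change of sEVs relative to lEVs (± SE) for each arm as reported (diamond) and under each alternative (circles); red marks an adjusted p under 0.05. miR-140-3p moves from -0.42 to -0.05 without lEVs replicate 1, miR-140-5p stays below 0 in all settings shown, miR-455-3p stays above 0, and miR-455-5p lies near 0.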

How the data were processed

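The deposited values are raw counts, whole numbers for each mature miRNA in each library. Per the labels' protocols, the steps were miRNeasy extraction, a QIAseq miRNA library kit and single reads on a MiSeq. Per the submitters' processing notes the build was GRCm38, with R 4.2.2 and DESeq2 1.38.2. Use of strand, use of molecular identifiers, aligner and counting method: not given in the sources used here. As deposited, the table held 0 values of 1.

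The 6 libraries were compared by edgeR 4.0.16 under R 4.3.3 (quasi-likelihood, TMM, filterByExpr with minimums of 10 counts and a total of 15; 145 miRNAs; Benjamini-Hochberg at 0.05). Standard errors are the log2 fold change over the root of F. Arm ratios, log2 of (3p + 0.5)/(5p + 0.5) counts, were fitted with limma 3.58.1 over hairpins with a mean of at least 10 counts, joined rows left out. Scripts were tested on simulated data. Alternatives included DESeq2 1.42.0 and voom. The members and lists were chosen with earlier results of these data known. Named miRNAs are the members, the 3 nearest in profile and arm ratio, neighbours in level, seed sharers and up to 4 most abundant of each list.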

Additional observations from a re-analysis of the deposited data

How the results depend on the processing

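Fold changes of the 4 arms were refitted under 15 alternatives and 3 more chosen after seeing the data (library totals or DESeq2 with no lEVs replicate 1, and totals with the block). miR-140-3p ranged from -0.62 to -0.05 and passed only with library totals and no lEVs replicate 1 (-0.30). miR-140-5p ranged from -1.13 to -0.47 and passed with library totals (-0.91), no filter (-0.83), totals and no lEVs replicate 1 (-0.71) and without lEVs replicate 2 (-1.13). miR-455-3p ranged from 0.60 to 0.95 and passed in none. miR-455-5p ranged from -0.33 to 0.12, positive only without sEVs replicate 1 (0.12). Leaving out 1 library each gave -0.62 to -0.05, -1.13 to -0.47, 0.60 to 0.95 and -0.33 to 0.12 in the same order. Called miRNAs numbered 25, and 16 to 52 when 1 library was left out (16 without lEVs replicate 3, 22 without lEVs replicate 2, 52 without lEVs replicate 1). They numbered 35 with library totals and 53 with no filter. With no lEVs replicate 1, they numbered 64 with totals and 38 in DESeq2. The cause of these moves was not tested. Arm ratios called numbered 0, and 0 to 2 when 1 library was left out (miR-127 and miR-99a without lEVs replicate 1); the differences ranged from 0.24 to 0.60 for miR-140 and from 0.63 to 1.08 for miR-455, which gave no value at a minimum of 50 counts. With the replicate number as a block, 26 miRNAs and 0 arm ratios passed, none of the 4 arms, with -0.36, -0.77, 0.85 and -0.08. The blocked interval of miR-455-3p, -0.35 to 2.04, included 0. Of the listed rows of other cells, the block changed 1 call: miR-133a-3p/133b-3p passed, lower in sEVs. The numbers do not show a pairing: deviations of libraries 1, 2 and 3 correlated across miRNAs between fractions at -0.04, 0.02 and 0.35. Depth limits miR-455, at 4 to 18 counts a library.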
